A study of Drosophila melanogaster with 6 samples.

Results

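The 4 genes described here encode the receptor tyrosine kinase Pvr and its secreted ligands Pvf1, Pvf2 and Pvf3, out of 17612 genes counted in single cells of the adult Drosophila melanogaster testis. They were taken as a list by name, but the list was also selected on measured values, since Pvf1 was chosen by its lower level in mutant cyst stem cells (CySCs) than in wild-type CySCs in these same data. The difference of the members between genotypes in CySCs is therefore given as a description with no test, and tests were run in the other 16 cell types.

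The study dissected testes of adult males of the strain ChinmoST, written chinmoST here, and of the wild-type strain Oregon R. The labels give the mutant genotype as Sod1[X-39] with e[1] over the balancer TM3, which carries Sb[1] and Ser[1], and name no chinmo allele there. Flies were aged 3–5 d, 6–8 d or 9–11 d, and each genotype and age gave 1 library of pooled testes. chinmo encodes a transcription factor, and the study describes chinmoST as an allele that lowers it in CySCs and their progeny. All flies were raised on the same medium at the same temperature. The study states that spermatids were filtered out before capture in all libraries, to enrich early germ cells and cyst cells. Cells named early and late spermatids were still kept, at 2711 and 470 in chinmoST and 3553 and 483 in wild-type. The 3 ages of a genotype served as its 3 replicates, so the spread between replicates includes age, and nothing in the labels gives a second library of the same age.

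Pvr is the single fly receptor of the platelet-derived and vascular endothelial growth factor (PDGF/VEGF) family. A bound Pvf ligand brings receptor molecules together, the receptor phosphorylates itself, and adaptors then pass the signal to the Ras/MAP kinase, Rac, JNK and PI3 kinase branches. In flies the pathway is best known for the survival and migration of hemocytes, the blood cells, for the guidance of border cells through the egg chamber by Pvf1, and for epithelial closure. In the testis, hub cells form the niche that holds the germline stem cells and the CySCs, and the CySCs give rise to early, intermediate and late cyst cells that enclose the germline.

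Pvf1 (FBgn0030964) lies on the X chromosome at X:18832682-18842901 on the plus strand. The other members lie on the left arm of chromosome 2 on the minus strand, Pvf2 (FBgn0031888) at 2L:7069536-7084635, Pvf3 (FBgn0085407) at 2L:7098188-7157695 and Pvr (FBgn0032006) at 2L:8220980-8239878 (BDGP6, the coordinates of dm6). Pvf1 and Pvr overlap no other annotated gene. The span of Pvf2 contains lncRNA:CR44611 on the same strand, at 2L:7078895-7079399, whose 505 exon bases share 0 bases with Pvf2 exons, so the lncRNA sits in an intron. Ugt307A1 on the opposite strand shares 11 exon bases with Pvf2 and had 0 UMIs in the kept cells. lncRNA:CR44612 on the opposite strand of Pvf3 shares 0 exon bases with it and had 82 UMIs.

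The study kept 26549 cells, 3273 to 6660 per library, in 17 cell types (6 germline and 11 somatic), with 24746443 to 41822738 UMIs per library (unique molecular identifiers, 1 per captured molecule). The median kept cell held 1865 to 2264 UMIs in chinmoST libraries and 2372.5 to 4123 in wild-type libraries. Levels below are CPM, the count of a gene scaled to 1e6 UMIs of that cell type in that library. Counts are from transcript 3′ ends and do not grow with transcript length. Of the 63 measured marker genes listed for the types, 46 were highest in their own type. In hub cells org-1, InR, aop and Socs36E were highest, while upd1, the niche ligand that defines the hub, had 0 or 1 UMI per library there. The hub markers Fas3 and hh were highest in somatic cells at the base of the testis, with hub cells at rank 4 for Fas3 and 10 for hh. Of the 6 CySC markers, piwi and tj were highest in CySCs, zfh1 and stg in hemocytes, ptc in muscle cells and puc in hub cells. None of the 3 markers of intermediate cyst cells, the 2 of early cyst cells or the 3 of late spermatocytes was highest in its own type, so those names rest on the authors' annotation. The libraries also differed apart from genotype. The mitochondrial transcript mt:srRNA was at 3.95, 405 and 822 CPM in the chinmoST libraries of 3–5, 6–8 and 9–11 d, against 1.23, 151 and 217 CPM in the wild-type libraries of those ages. A set of 11 X-linked genes separated the chinmoST and the 3–5 d wild-type libraries from the later wild-type libraries by at least 50-fold, and the nearest of them lies 1372361 bases from Pvf1. Of the barcode strings, 63 occurred in more than 1 library.

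The members differed in where they were found. Pvf1 and Pvr were somatic, with 98.2% of the 9889 Pvf1 UMIs and 97.7% of the 4519 Pvr UMIs in somatic types. By count of UMIs Pvf2 was mostly germline, with 79.8% of its 1600 UMIs in germline types. Such shares also reflect how many UMIs a type holds, and early spermatids alone held 20350455 in chinmoST and 39396183 in wild-type. By level Pvf2 was not particular to the germline, whose types averaged 0.24 to 13.7 CPM, the lowest in GSCs/spermatogonia. Hub cells averaged 9.78 CPM, muscle cells 8.73 and intermediate cyst cells 6.60. Pvf3 was sparse, with 279 UMIs in all, 87.1% of them somatic. Of the 102 values per gene over types and libraries, 52 were 0 for Pvf3, 31 for Pvf2, 22 for Pvf1 and 12 for Pvr. In these summed counts fewer expressing cells and less RNA per cell cannot be told apart.

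**Figure D1:**
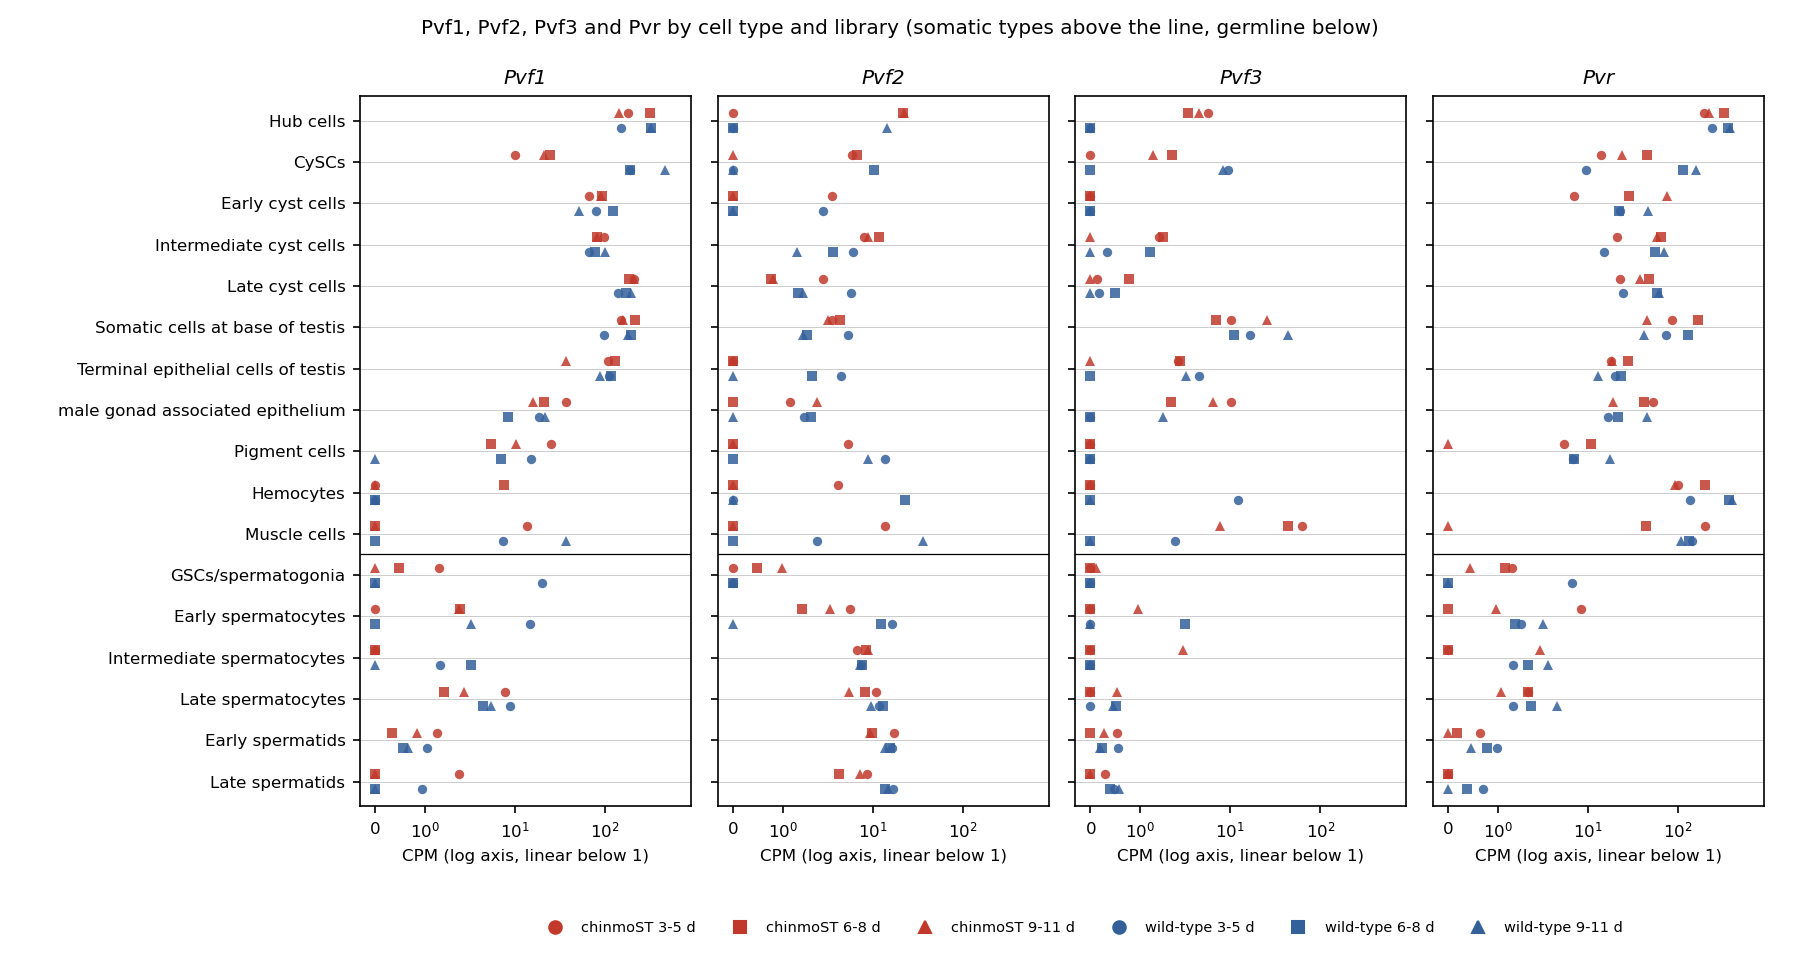
Level of Pvf1, Pvf2, Pvf3 and Pvr in each of the 17 cell types (CPM of UMIs summed per library and type, on a log axis that is linear below 1), with 1 point per library and the chinmoST libraries drawn above the wild-type libraries. Pvf1 and Pvr are high in somatic types and near 0 in the germline, and most Pvf3 values are at or near 0. Pvf2 has its highest mean over all libraries in early spermatids. Some libraries of hub cells, muscle cells and hemocytes lie above every early spermatid library, in muscle cells and in hemocytes from 1 UMI each.

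Pvr, the receptor, was highest in the cells annotated as hub cells, whose listed markers upd1, hh and Fas3 were higher in other types. It was at 196, 327 and 220.0 CPM in hub cells of the chinmoST libraries (3–5, 6–8 and 9–11 d) and at 241, 356 and 373 CPM in those of the wild-type libraries. The wild-type library was the higher one at each age, but the 2 ranges overlapped, and the means of 248 ± 69.7 and 324 ± 71.8 CPM (SD, n = 3 each) did not pass edgeR's quasi-likelihood test (log2 fold change −0.34, SE 0.40, adjusted p = 0.996). Hub cells were few, at 31, 18 and 14 in chinmoST and 28, 10 and 10 in wild-type.

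Hemocytes, in which Pvr is known as a survival receptor, were next. Pvr was at 99.9, 199 and 91.8 CPM in chinmoST hemocytes and at 134, 363 and 399 CPM in wild-type hemocytes, from 4 to 23 cells per chinmoST library and 5 to 10 per wild-type library. The chinmoST value was lower at each age and the ranges overlapped (log2 fold change −1.16, SE 0.56, adjusted p = 0.999, edgeR). All 5 hemocyte markers were highest in hemocytes. Their sum in hemocytes was lowest at 3–5 d, at 2502, 12091 and 16760 CPM in chinmoST and 2284, 11989 and 15519 CPM in wild-type. The part of this spread in the Pvr values was not tested. Muscle cells had 202, 43.7 and 0 CPM of Pvr in chinmoST and 143, 132 and 109 CPM in wild-type. The spread in chinmoST muscle went with the summed muscle markers, at 8603, 3149 and 205 CPM in chinmoST muscle cells and 8832, 9730 and 5774 CPM in wild-type, and its part in the Pvr values was not tested (log2 fold change −0.41, SE 1.01, adjusted p = 0.980).

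Somatic cells at the base of the testis carried Pvr at 86.7, 164 and 44.8 CPM in chinmoST and 73.2, 129 and 41.3 CPM in wild-type. The chinmoST value was the higher one at each age by a small step, and the values spread more between ages than between genotypes (log2 fold change 0.27, SE 0.51, adjusted p = 0.993, edgeR). In the cyst lineage Pvr was lower. Intermediate cyst cells had 21.1, 64.9 and 58.3 CPM in chinmoST and 14.9, 56.0 and 69.1 CPM in wild-type, and late cyst cells had 22.8, 47.3 and 38.3 CPM in chinmoST and 24.3, 58.5 and 61.4 CPM in wild-type. In both types and both genotypes the 3–5 d library was the lowest. Those are also the 2 libraries with little mt:srRNA, and age and library cannot be told apart here. Neither type passed the test of genotype (log2 fold change 0.00 in intermediate and −0.46 in late cyst cells, SE 0.43 in the second, adjusted p over 0.9 in both, edgeR).

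Over the 6 libraries the order of Pvr was hub cells at 286 ± 75.8 CPM, hemocytes at 215 ± 135, muscle cells at 105 ± 72.5, basal somatic cells at 90.0 ± 48.6, CySCs at 60.5 ± 60.9, intermediate cyst cells at 47.4 ± 23.3, late cyst cells at 42.1 ± 16.6, early cyst cells at 33.6 ± 24.2, male gonad associated epithelium at 32.8 ± 15.5, terminal epithelial cells at 20.1 ± 5.05 and pigment cells at 7.91 ± 5.87 (SD, n = 6). Every pair of neighbours in that order overlapped in range. The 6 germline types averaged 0.18 to 2.66 CPM. By number of molecules the order was another. Late cyst cells held 24.3% and intermediate cyst cells 23.7% of the 4519 Pvr UMIs, hub cells held 768 of them and basal cells 16.8%.

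Other receptor tyrosine kinases shared the hub as their highest type. InR, the insulin receptor, averaged 493 CPM there, the epidermal growth factor receptor Egfr 70.2 CPM, the ephrin receptor Eph 69.1 CPM and sev, known from photoreceptor choice, 57.5 CPM. Tie was highest in terminal epithelial cells at 57.4 CPM with 52.8 CPM in hub cells, and htl, Alk and Ddr were highest in muscle. Being highest in hub cells was thus shared by Pvr with 4 of the 13 other receptors at over 50 CPM.

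Pvf1, the ligand, was highest in hub cells in chinmoST, while in wild-type hub cells ranked 2, after CySCs. It was at 180.4, 315 and 141 CPM in hub cells of chinmoST libraries and at 149, 326 and 323 CPM in those of wild-type libraries (212 ± 91.1 and 266 ± 101 CPM, SD, n = 3 each). The ranges overlapped (log2 fold change −0.27, SE 0.45, adjusted p = 0.996, edgeR). A UMI of both Pvf1 and Pvr was found in 61.3%, 88.9% and 57.1% of the chinmoST hub cells of the 3 ages and in 71.4%, 100% and 100% of the wild-type ones. These cells were deep, with median UMI counts of 17589, 32648.5 and 30888 in chinmoST and 10518, 28314.5 and 43265 in wild-type. At 1000 UMIs a cell, Pvr was found in 22.2%, 30.8% and 16.1% of chinmoST and 25.8%, 38.9% and 32.5% of wild-type hub cells, against at most 0.14% of early spermatids.

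CySCs were the place where the Pvf1 level separated the genotypes, which is how the gene was chosen. Pvf1 was at 9.85, 24.6 and 20.9 CPM in chinmoST CySCs of 3–5, 6–8 and 9–11 d, and at 190.5, 188 and 465 CPM in wild-type CySCs. The highest chinmoST library lay far below the lowest wild-type library, and the wild-type mean of 281 ± 159 CPM was 15.2 times the chinmoST mean of 18.5 ± 7.69 CPM (SD, n = 3 each, log2 fold change −3.65). Among the 17 types, CySCs ranked 8 in Pvf1 level in chinmoST and 1 in wild-type. Over all genes tested in CySCs, 0% were called at an adjusted p under 0.05 by edgeR and 1.55% by DESeq2, 9.04% had an unadjusted p under 0.05 by edgeR, and 12.9% had all 3 chinmoST libraries below all 3 wild-type libraries.

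These wild-type values rest on few cells. The chinmoST libraries held 26, 33 and 31 CySCs with 5, 11 and 15 UMIs of Pvf1, while the wild-type libraries held 9, 4 and 7 CySCs with 20, 18 and 113 UMIs. The wild-type cell richest in Pvf1 carried 8, 16 and 49 UMIs at the 3 ages, which at 6–8 d was 88.9% of the library's total. A Pvf1 UMI was found in 11.5%, 15.2% and 25.8% of chinmoST CySCs, and in 55.6%, 75% and 57.1% of wild-type CySCs. The exact 95% intervals (Clopper-Pearson, counting error only) ran over 2.45–30.2%, 5.11–31.9% and 11.9–44.6% in chinmoST and over 21.2–86.3%, 19.4–99.4% and 18.4–90.1% in wild-type. Wild-type CySCs were also deeper, with a median of 11025, 7734.5 and 20490 UMIs per cell against 4726.5, 4640 and 7174 in chinmoST. Thinned to 1000 UMIs a cell, the share was 0.41%, 1.85% and 1.06% in chinmoST and 17.6%, 11.2% and 22.0% in wild-type. In early spermatids, taken as the background for this somatic gene, a Pvf1 UMI was found in 0.27% to 2.18% of cells at median depths of 1725.5 to 12665.5 UMIs, and thinned in 0.11% to 0.25%.

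The 3–5 d wild-type library, which resembled the chinmoST libraries at the 11 X-linked genes, had Pvf1 at the level of the 6–8 d wild-type library. chinmo itself was at 5.91, 87.4 and 2.78 CPM in chinmoST CySCs and at 324, 679 and 572 CPM in wild-type CySCs, lower in chinmoST at each age. In the later cyst cells the chinmo ranges of the genotypes overlapped. Early cyst cells had 14.1, 176 and 93.6 CPM in chinmoST and 70.0, 49.8 and 162 CPM in wild-type. Intermediate ones had 12.3, 24.4 and 35.9 against 15.9, 26.1 and 16.8 CPM, and late ones 13.2, 31.0 and 42.3 against 13.1, 54.7 and 16.9 CPM. The summed hub markers were at 363, 820.1 and 651 CPM in chinmoST CySCs and 248, 564 and 596 CPM in wild-type CySCs, org-1 was 0 in all 6 libraries, upd1 was 0 in all but the 9–11 d chinmoST library (8.35 CPM), and Fas3 was at 27.6, 117 and 231 CPM in chinmoST against 0, 10.4 and 0 CPM in wild-type. Of these hub markers, the study also lists InR, aop and Socs36E for CySCs. It reports that Fas3 rises in the chinmoST CySC lineage, so this sum is not particular to hub cells. CySCs lay in cluster 2, which also holds 89.2% of hub cells, and in cluster 16. Cluster 2 held 14, 16 and 104 of the Pvf1 UMIs of wild-type CySCs, from 3, 1 and 3 cells. There wild-type exceeded chinmoST at each age: 321 over 12.7, then 206 over 18.7, then 509 over 23.5 CPM. In cluster 16 wild-type was lower but still above chinmoST: 97.7 over 7.39, then 110 over 39.9, then 232 over 8.19 CPM. That rests on 6, 2 and 9 wild-type UMIs. Neither cluster was tested alone, and the part of hub cell RNA in the Pvf1 values was not tested. Pvr in CySCs was at 13.8, 44.8 and 23.7 CPM in chinmoST and 9.52, 115 and 156 CPM in wild-type (27.4 ± 15.8 and 93.6 ± 75.7 CPM, log2 fold change −1.58), with overlapping ranges and with all 11 wild-type UMIs of 6–8 d in 1 cell.

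**Figure D2:**
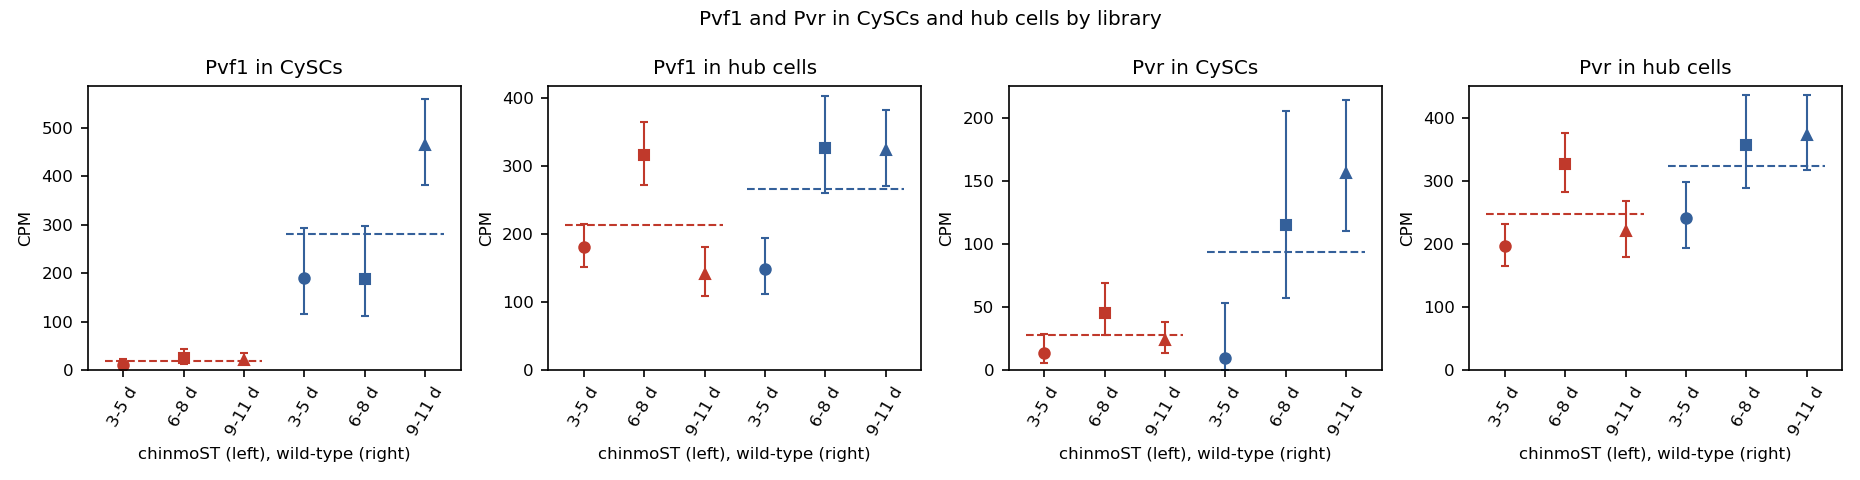
Pvf1 and Pvr level (CPM, linear axes) in CySCs and in hub cells, with 1 point per library, bars for the exact Poisson 95% interval of counting error and dashed lines for the mean of each genotype, chinmoST left of wild-type. Pvf1 in chinmoST CySCs lies between 9.85 and 24.6 CPM and in wild-type CySCs between 188 and 465 CPM, while in hub cells the 2 genotypes overlap for both genes.

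In the other somatic types the ranges of the genotypes overlapped. Late cyst cells, which enclose elongating spermatids, held 50.3% of all Pvf1 UMIs, at 210.2, 182 and 207 CPM in chinmoST and 138, 172 and 191 CPM in wild-type (log2 fold change 0.24, SE 0.24, adjusted p = 0.9997, edgeR). Basal somatic cells had 152, 217 and 157 CPM in chinmoST and 96.9, 193 and 178 CPM in wild-type. In the direct descendants of CySCs the ranges overlapped. Early cyst cells had 66.9, 91.7 and 89.1 CPM in chinmoST and 78.4, 122 and 50.8 CPM in wild-type (log2 fold change −0.06, adjusted p = 0.995), and intermediate cyst cells had 97.5, 81.2 and 81.1 CPM in chinmoST and 65.3, 76.1 and 99.1 CPM in wild-type (0.10, SE 0.26, adjusted p = 0.927). Terminal epithelial cells ranged over 37.0–129.9 CPM in chinmoST and 86.6–115 CPM in wild-type.

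By mean over 6 libraries, Pvf1 stood at 239 ± 91.1 CPM in hub cells, 183 ± 26.6 in late cyst cells, 166 ± 41.3 in basal cells, 150 ± 176 in CySCs, 97.8 ± 32.9 in terminal epithelial cells, 83.4 ± 12.9 in intermediate cyst cells and 83.1 ± 24.3 in early cyst cells (SD, n = 6). The only neighbours whose ranges did not overlap were early cyst cells and the male gonad associated epithelium, at 20.2 ± 9.25 CPM. The CySC mean pools 2 separate levels, and in chinmoST alone CySCs ranked just below that epithelium, at 18.5 and 24.4 CPM. Germline types averaged 0.55 to 5.10 CPM. Their highest value, 19.9 CPM in wild-type GSCs/spermatogonia of 3–5 d, came from 12 UMIs in 4 of 18 cells, 8 of them in 1 cell. That type entered the test for Pvf1 only with no filter on low counts, where it was called as lower in chinmoST (log2 fold change −4.57, adjusted p = 0.00851, edgeR), beside 1.78% of all genes there. The wild-type libraries of 6–8 d and 9–11 d held 6 and 4 cells of the type and no Pvf1 UMI. In them 3 counts would stand for 138 and 139 CPM, so their zeros set no useful limit.

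**Figure D3:**
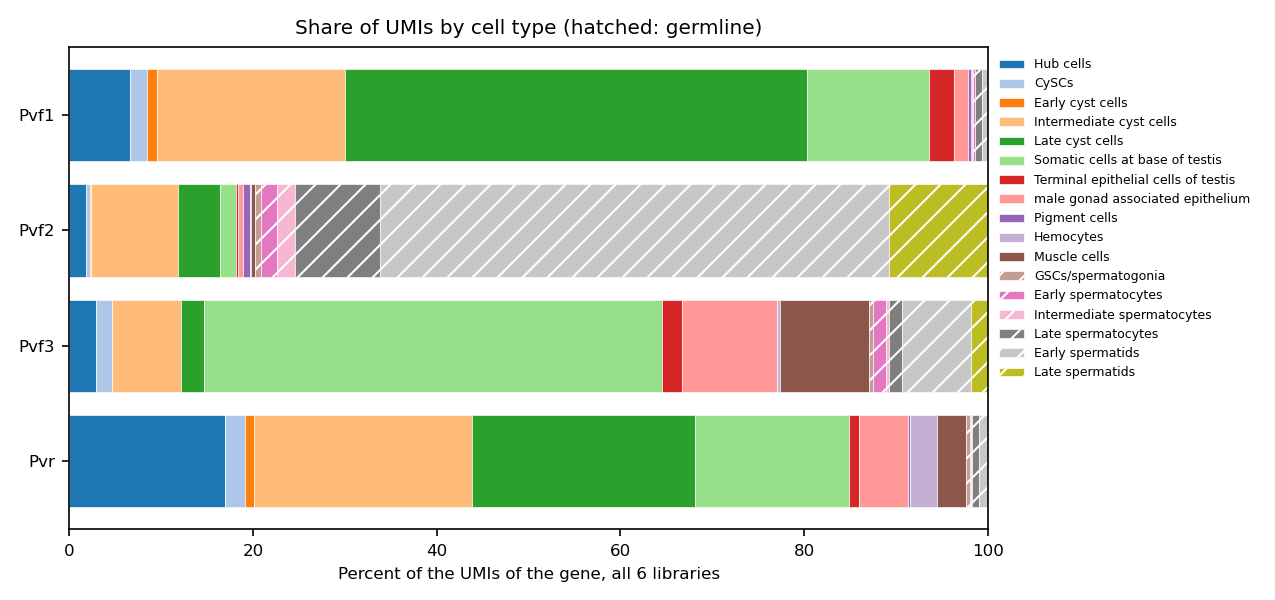
Share of each member's UMIs (percent of the total over all libraries) that falls in each cell type. Late cyst cells hold 50.3% of Pvf1, early spermatids 55.4% of Pvf2, basal somatic cells 49.8% of Pvf3, and Pvr is spread over late cyst cells (24.3%), intermediate cyst cells (23.7%), basal cells (16.8%) and hub cells.

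Pvf2, the second ligand, had most of its UMIs in spermatids. Early spermatids held 55.4% of its UMIs, late spermatids 10.8%, intermediate cyst cells 9.44% and late spermatocytes 9.25%. In early spermatids it was at 17.3, 9.89 and 9.30 CPM in chinmoST and 16.3, 15.7 and 13.6 CPM in wild-type (log2 fold change −0.37, SE 0.30, adjusted p = 0.757, edgeR). In late spermatids it was at 8.63, 4.19 and 7.16 CPM in chinmoST and at 16.6, 13.7 and 14.9 CPM in wild-type. Each chinmoST library was below each wild-type library there, as held for 6.07% of the genes tested in that type. The means of 6.66 ± 2.26 and 15.1 ± 1.45 CPM (SD, n = 3 each, from 41 and 132 UMIs) gave a log2 fold change of −1.16 (SE 0.35), which did not pass the adjustment over all genes (adjusted p = 0.326, edgeR, beside 0.68% of all genes called in that type). Late spermatocytes had 10.9, 8.18 and 5.40 CPM in chinmoST and 11.7, 13.0 and 9.47 CPM in wild-type (log2 fold change −0.62, SE 0.38, adjusted p = 0.512). By mean level over 6 libraries the order was early spermatids at 13.7 ± 3.38 CPM, late spermatids at 10.9 ± 4.90, hub cells at 9.78 ± 11.1, late spermatocytes at 9.78 ± 2.72, muscle cells at 8.73 ± 14.5 and intermediate spermatocytes at 7.71 ± 0.79 (SD, n = 6), and neighbours overlapped in range. Early spermatids ranked 2 in chinmoST, after hub cells at 14.8 ± 12.8 CPM, and 1 in wild-type.

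The share of late spermatids with a Pvf2 UMI was 9.39%, 3.70% and 5.56% in chinmoST and 25.6%, 15.4% and 10.6% in wild-type, at median depths of 3540, 4728 and 3182.5 UMIs in chinmoST and 9566.5, 5156.5 and 2968 UMIs in wild-type. Thinned to 1000 UMIs it was 0.80%, 0.19% and 0.94% in chinmoST and 1.53%, 1.88% and 1.12% in wild-type. Late cyst cells were taken as the background, since most Pvf2 UMIs were in germline types. They had a Pvf2 UMI in 0.46% to 0.90% of cells in chinmoST and 1.13% to 2.69% in wild-type. Their median depths were 1970 to 2941 UMIs in chinmoST and 3144.5 to 4121 in wild-type. The intronic lncRNA:CR44611 was much more abundant than Pvf2 in spermatids but did not take the same course. In late spermatids it was at 83.0, 52.4 and 57.3 CPM in chinmoST and 46.2, 51.6 and 59.6 CPM in wild-type (log2 fold change 0.27, SE 0.26, adjusted p = 0.901, edgeR).

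In intermediate cyst cells Pvf2 ran the other way. It was at 7.90, 11.7 and 8.86 CPM in chinmoST and 6.09, 3.60 and 1.44 CPM in wild-type, with every chinmoST library above every wild-type library, which held for 10.5% of the genes tested in that type. The log2 fold change was 1.35 (SE 0.49, adjusted p = 0.449, edgeR, beside 0.0762% of all genes called in that type, 9.49 ± 1.99 and 3.71 ± 2.33 CPM, SD, n = 3 each). With age as a block the change was 1.36 (SE 0.39) and passed the test (adjusted p = 0.0343), in a fit that called 19.6% of all genes in that type, 7.99% of them as higher in chinmoST. A few cells carried the difference. The cell richest in Pvf2 held 11, 22 and 10 of the 34, 39 and 19 UMIs of the chinmoST libraries, and 4, 2 and 2 of the 36, 17 and 6 UMIs of the wild-type libraries. The share of cells with a UMI was 2.11%, 2.84% and 2.86% in chinmoST and 3.46%, 2.82% and 0.91% in wild-type, beside 0.46% to 0.90% of late cyst cells in chinmoST and 1.13% to 2.69% in wild-type. In intermediate cyst cells the summed early spermatid markers were at 455, 195 and 189 CPM in chinmoST and 720, 410 and 255 CPM in wild-type. The part of spermatid RNA in these Pvf2 values was not tested.

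Cells of cluster 2, the cluster that holds 99 of the 111 hub cells (89.2%), were part of this. Within intermediate cyst cells the chinmoST libraries had 3, 5 and 2 cells of that cluster with 0, 26 and 10 UMIs of Pvf2, and the wild-type libraries had 4, 1 and 1 such cells with 1, 0 and 0 UMIs. Hub cells themselves had Pvf2 at 0, 21.9 and 22.4 CPM in chinmoST and 0, 0 and 14.4 CPM in wild-type. Without cluster 2 the intermediate cyst cells had 8.02, 4.24 and 4.33 CPM in chinmoST and 6.08, 3.61 and 1.44 CPM in wild-type, ranges that overlapped. The log2 fold change was then 0.62 (SE 0.54, adjusted p = 0.825, edgeR) and, with age as a block too, 0.62 (SE 0.38, adjusted p = 0.298), so the call was lost. The difference of the Pvf2 effect between intermediate cyst cells and late spermatids was 2.33 on the log2 scale and did not pass the adjustment (adjusted p = 0.847, and 0.295 with the library as a block, edgeR).

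**Figure D4:**
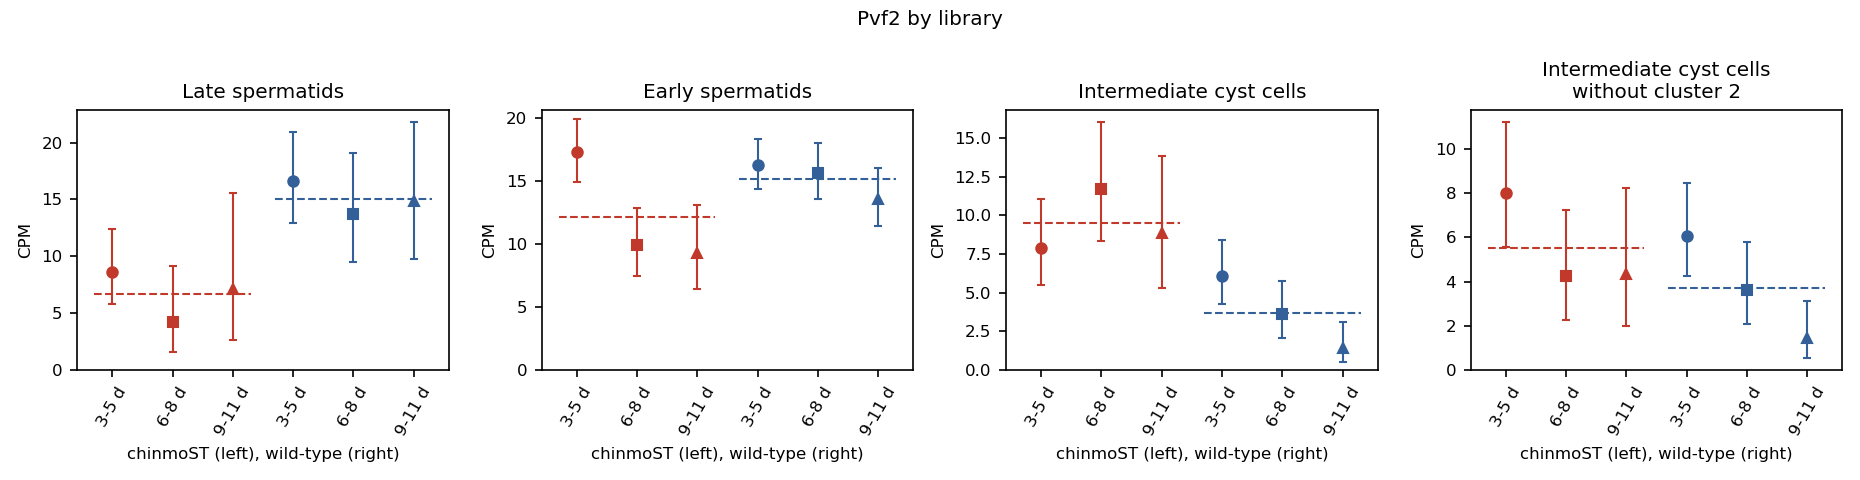
Pvf2 level (CPM) per library in late spermatids, early spermatids and intermediate cyst cells, the last also without the cells of cluster 2, with chinmoST left of wild-type, bars for the exact Poisson 95% interval of counting error and dashed lines for the mean. The chinmoST libraries lie at 4.19 to 8.63 CPM in late spermatids, below the 13.7 to 16.6 CPM of wild-type, and at 7.90 to 11.7 CPM in intermediate cyst cells, above the 1.44 to 6.09 CPM of wild-type, an order that overlaps once cluster 2 is left out.

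Pvf3, the third ligand, had measurable levels in few places. Basal somatic cells held 49.8% of its UMIs, the male gonad associated epithelium 10.4% and muscle cells 9.68%. In basal cells Pvf3 was at 10.2, 6.89 and 25.6 CPM in chinmoST and 16.5, 11.1 and 43.9 CPM in wild-type, and 40 of the 52 UMIs of the highest library sat in 1 cell (log2 fold change −0.85, SE 0.78, adjusted p = 0.966, edgeR). Muscle cells of chinmoST libraries had 62.7, 43.7 and 7.58 CPM (23, 2 and 1 UMIs), and those of wild-type libraries 2.42, 0 and 0 CPM (1, 0 and 0 UMIs). The later wild-type libraries had 5 muscle cells each, in which 3 counts would stand for 79.3 and 109 CPM, so their zeros allow the chinmoST levels. That limit does not cover 3–5 d, where the libraries had 88 chinmoST and 72 wild-type muscle cells. There the 23 UMIs of chinmoST lay in 14 cells, beside 1 UMI in wild-type, from 1 library of each genotype and with no test. The male gonad associated epithelium had 27 UMIs in chinmoST, of which 13 of 17, 2 of 2 and 8 of 8 lay in 1 cell of each library, and 2 UMIs in wild-type, while hub cells had 8 UMIs in chinmoST and 0 in wild-type. Of the Pvf3 values only those of basal cells were high enough to be tested. Early cyst cells and pigment cells had no Pvf3 UMI in any library, which at 3 counts allows up to 8.40 to 21.2 CPM per library in early cyst cells.

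Outside CySCs the members gave 64 combinations of gene and cell type, of which 20 had enough counts for the test (8 for Pvf1, 4 for Pvf2, 1 for Pvf3 and 7 for Pvr). By edgeR, 0 of the 20 were called at an adjusted p under 0.05, beside 0.584% of the 88055 combinations of all genes and those 16 types. At an unadjusted p under 0.05 there were 2 of 20, both of Pvf2 (late spermatids and intermediate cyst cells), beside 10.8% of all combinations. DESeq2 called 0 of the 20, beside 1.92% of all, and 9.55% of all had an unadjusted p under 0.05 with that tool. With age as a block edgeR called 1 of the 20, Pvf2 in intermediate cyst cells, beside 6.68% of all. The counts for the members were thus near the background.

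**Figure D5:**
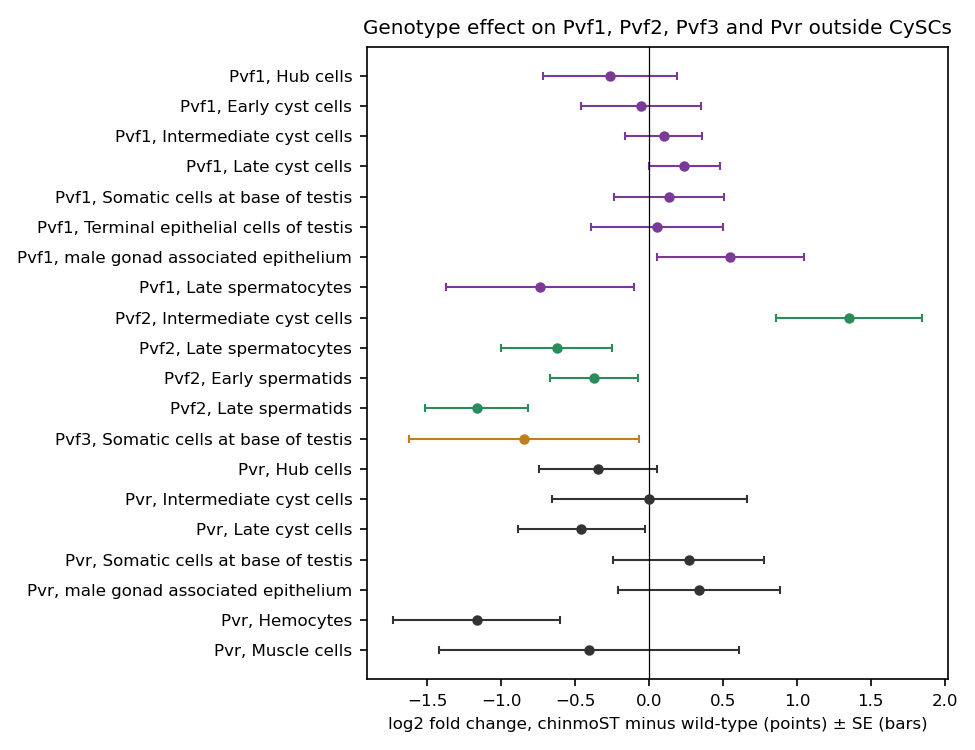
Log2 fold change of each member (chinmoST over wild-type, edgeR) in every cell type where it was tested, with bars of 1 standard error and CySCs left out. The 20 values lie between −1.16 and 1.35, and the 2 farthest from 0 by their error are those of Pvf2 in intermediate cyst cells and in late spermatids.

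Downstream of the receptor, 40 genes of the Pvr pathway were measured, from its adaptors to the Ras/MAP kinase, Rac, JNK and PI3 kinase branches. In 368 tests over the 16 types, 1 was called as higher in chinmoST and 0 as lower, and of 38 tests of 13 other receptor tyrosine kinases 0 were called, with the edgeR test. At an unadjusted p under 0.05 the pathway genes had 30 higher and 5 lower and the receptors 1 higher, beside 10.8% of all combinations, and DESeq2 called 3 of 397 tests over both lists, beside 1.92% of all. With both directions pooled, these counts were near or under the background, which was not split by direction. Except in hub cells, hemocytes and muscle cells, the median log2 fold change of the pathway genes was above that of all genes. In GSCs/spermatogonia 9 of 30 pathway genes tested had an unadjusted p under 0.05 by edgeR, all higher in chinmoST, beside 19.1% of all genes. The median there was 1.06 over the pathway genes and 0.42 over all genes. This lean toward higher values was not tested. The one call was rl, the ERK-type MAP kinase, in early spermatocytes. It was at 50.5, 35.7 and 56.4 CPM in chinmoST and at 19.9, 12.4 and 22.4 CPM in wild-type, with no overlap, as held in that direction for 12.2% of the genes tested in that type (log2 fold change 1.60, SE 0.39, adjusted p = 0.0492, edgeR). In that type 4.03% of all genes were called, 3.25% as higher, and the median log2 fold change was 0.43 over the 20 pathway genes tested and 0.06 over all genes. The call was lost when the 6–8 d or the 9–11 d library of either genotype was left out (adjusted p of 0.145 to 0.231, edgeR). With age as a block, Crk (1.06), Rac1 (1.04) and Ras85D (1.09 on the log2 scale) passed beside rl in that type (adjusted p of 0.00561, 0.00879 and 0.0183, edgeR), in a fit that called 27.4% of all genes in a type whose ages did not pair. The same block called rl in late spermatocytes (1.72, beside 4.11% of all genes) and kek1, an inhibitor of the EGF receptor, as lower in chinmoST hub cells (−1.17, adjusted p = 0.0347, beside 6.05% of all genes).

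In intermediate cyst cells pathway genes were called only when age was a block. With that block 15 of 39 tested genes rose in chinmoST and 0 fell, beside 7.99% and 11.7% of all genes tested in the type, and the insulin receptor InR rose with them. Without the block 0 of them were called by edgeR, and 5 had an unadjusted p under 0.05, all higher in chinmoST, beside 9.17% of all genes in that type. The median log2 fold change without the block was 0.47 over the 39 genes and 0.02 over all genes. Rac2, a small GTPase of the Rac branch, was at 153, 214 and 265 CPM in chinmoST and 58.2, 90.3 and 107 CPM in wild-type (log2 fold change 1.31, adjusted p = 0.000397 with the block and 0.272 without it, edgeR). kay, the fly Fos, was at 16.3, 81.2 and 76.0 CPM in chinmoST and 7.62, 25.7 and 27.1 CPM in wild-type (1.43, adjusted p = 0.00104 with the block and 0.622 without it). puc, the phosphatase that is induced by and restrains JNK signalling, was at 10.9, 25.0 and 38.7 CPM in chinmoST and 7.28, 3.39 and 3.84 CPM in wild-type (2.18, adjusted p = 0.00823 with the block and 0.193 without it). The adaptors dos and Shc, the Rac activator subunit mbc and the kinase msn, which acts above JNK, completed the first 8 with InR, by 0.65 to 1.62 on the log2 scale.

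Markers of hub cells and CySCs moved with these genes. In intermediate cyst cells the summed hub markers were at 138, 302 and 251 CPM in chinmoST and 82.6, 132 and 137 CPM in wild-type, and the summed CySC markers at 19.3, 55.3 and 62.9 CPM in chinmoST and 15.7, 22.0 and 28.3 CPM in wild-type. InR and aop are hub markers and puc is a CySC marker in those lists. The study itself counts InR, aop and Socs36E as markers of both hub cells and CySCs. The part of hub cells and CySCs in the changes of the pathway genes was not tested beyond leaving out cluster 2. With cluster 2 left out and age as a block, 8 of the 39 pathway genes were higher in chinmoST, beside 6.09% of all genes (16.9% were called in either direction). Rac2 (adjusted p = 0.00107), kay (0.00505), puc (0.0185), dos, Shc and mbc passed there, while InR (0.102) and msn (0.212) did not.

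Across the 17 cell types the profiles of the members differed from one another. Over the mean levels the Pearson correlation was 0.68 between Pvf1 and Pvr, 0.61 between Pvf3 and Pvr, 0.33 between Pvf1 and Pvf3, −0.16 between Pvf2 and Pvr and −0.36 between Pvf1 and Pvf2, on log2(CPM + 1) with 17 points that share libraries. Among 7102 genes that reached at least 50 CPM in some type, the closest profiles to Pvf1 were those of CG4928 (0.97), mthl5 (0.96), CG32512 (0.96), Gp150 (0.95) and Ggt-1 (0.95). The closest to Pvr were be (0.97), lncRNA:roX2 (0.97), Flo2 (0.97), CG9932 (0.95) and luna (0.95), all but be highest in hub cells. Pvf2 had more distant neighbours, led by asRNA:CR45281 (0.87), Pka-R2 (0.87) and red (0.86), then CG15547 and Svil at 0.83. Those of Pvf3 were yellow-d (0.85), SK (0.82), CG12947 (0.80), Pde1c (0.80) and Shab (0.79), which were highest in muscle except yellow-d, highest in basal cells.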

How the data were processed

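Testes of 6 libraries were profiled with the 10x 3′ v3 kit. The authors aligned reads to dm6 and made UMI counts with Cell Ranger 4.0.0, kept cells with 200 to 6000 genes and a percent of mitochondrial UMIs under 10, and clustered and named cells with Seurat 3.2.2. Their deposited counts are not normalized, and the deposited table of cells gives the mitochondrial percent, cluster and type, used unchanged. No doublet caller was run. Samples were grouped by labels alone. The members and the gene lists were chosen with earlier results of these data known.

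Counts were summed per library and type. CPM is relative to all UMIs of a type. A library entered a test with at least 3 cells of the type. Sums were compared with edgeR 4.0.16 (R 4.3.3, quasi-likelihood F-test, TMM, default filter, Benjamini-Hochberg adjustment over all genes tested, called under 0.05), as a check with DESeq2 1.42.0. SE is the unshrunk log2 fold change over the square root of F. Fold changes carry edgeR's default prior count and understate low genes. p-values measure the spread between libraries of different ages. Floors are 3 counts, and intervals and floors cover counting error only. Tests were tried on simulated counts first.

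Libraries of the same age deviated together (every pair's correlation of deviations from group means over 0.1) in 12 of 17 types, so age as a block was an alternative. The exceptions were early cyst cells, early spermatocytes, GSCs/spermatogonia, muscle and pigment cells. Other alternatives were DESeq2, no filter, at least 10 cells, only cells over 2105 UMIs (the highest library minimum), leaving out each library, and thinning to 1000 UMIs. Intermediate cyst cells without cluster 2, the library block and the alternatives for the lists were added after the data were seen. Named were all members, called list genes outside CySCs (at most 8 per type), and the 5 genes with the profile closest to each member. Sequences are not printed here.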

Additional observations from a re-analysis of the deposited data

How the results depend on the processing

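Of the 20 tested member and type combinations, 13 kept the sign of their log2 fold change under every alternative run. The count of calls was 0 without each library in turn, and 1 with age as a replicate block (Pvf2 in intermediate cyst cells, 1.36) and with no filter on low counts, which called Pvf1 in GSCs/spermatogonia (−4.57, adjusted p = 0.00851, edgeR), from 12 of 12 wild-type UMIs in the 3–5 d library. The later wild-type libraries held only 6 and 4 cells of that type. The block changed no other call of a member outside CySCs. The CySC log2 fold change of Pvf1 was −3.92 to −2.97 without 1 library (−2.97 without the 9–11 d wild-type library) and that of Pvr −2.10 to −0.85. Signs turned in the other 7 combinations, with none of those values called. Without 1 library Pvf1 ranged over −0.29 to 0.30 in early cyst cells, −0.075 to 0.34 in intermediate cyst cells, −0.12 to 0.26 in basal cells and −0.18 to 0.31 in terminal epithelial cells, Pvf3 over −1.62 to 0.040 in basal cells, and Pvr over −0.44 to 0.45 in intermediate cyst cells and −0.18 to 0.65 in basal cells. With no filter Pvf1 in early cyst cells was 0.057. Pvr in intermediate cyst cells was −0.012 with DESeq2, −0.035 with no filter and −0.081 without cluster 2. For the pathway and receptor lists, 1 call became 3 with DESeq2, 22 with age as a block, 11 with no filter and 0 to 28 without 1 library (28 without the 3–5 d chinmoST and 5 without the 3–5 d wild-type library, and 0 without any later library). The cause of these changes was not tested. Depth limits Pvf3 most, with 1 of its 16 combinations testable, and all values in wild-type CySCs, which number 20 cells.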

Other observations

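The barcodes with more than 6000 genes, which the study left out of its cells, hold 47.4% to 76.4% of the UMIs of a library and also contain the members. Pvf2 was at 14.6, 6.15 and 4.06 CPM there in chinmoST libraries of 3–5, 6–8 and 9–11 d, and at 15.1, 12.5 and 13.5 CPM in wild-type libraries. Pvr was at 1.67, 2.84 and 2.53 CPM in chinmoST and 1.37, 5.31 and 6.42 CPM in wild-type, Pvf1 at 1.99, 1.76 and 2.68 CPM in chinmoST and 0.88, 2.59 and 5.48 CPM in wild-type, and Pvf3 at 0.23 to 0.52 CPM in chinmoST and 0.41 to 0.49 CPM in wild-type. These barcodes carry no cell type, and no test was run on them.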
